A study of Mus musculus with 24 samples.

Results

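Macrophages of the MyS3KO mouse line were compared with macrophages of the MyS2KO line, both after TGF-β1. The comparison uses 6 of 24 libraries, 3 for each line, chosen by their labelled genotype and treatment. MyS3KO mice carry floxed Smad3 alleles and LyzM-Cre, and MyS2KO mice carry floxed Smad2 alleles and LyzM-Cre. LyzM-Cre expresses the recombinase from the lysozyme gene Lyz2, which is active in myeloid cells, so other cells keep the floxed gene. All mice are labelled C57BL/6 and were 2 to 3 months old. Marrow from the tibia was cultured with a source of IL-3 and with CSF-1 to give macrophages. These went without serum for some 16 hours before TGF-β1 was added at 10 ng/ml for 4 hours. Untreated libraries of both knockout lines and libraries of the Cre-free floxed lines (Smad2fl and Smad3fl) serve here for comparison, again 3 for each group. The groups differ in mouse line as well as in the deleted gene, and the effect of line and of knockout cannot be told apart in this contrast. Whether the 3 libraries in each group are from different animals is not stated in the labels, and the protocols speak of 8 cDNA libraries where 24 samples are given. The p-values therefore measure only the spread between libraries, which may be technical.

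TGF-β1 binds a pair of receptor kinases that phosphorylate SMAD2 and SMAD3, which enter the nucleus with SMAD4 and change transcription. SMAD3 binds DNA directly, while the main form of SMAD2 does not. Among the genes switched on are inhibitors of the pathway itself, such as Smad7 and Pmepa1, and in macrophages and microglia TGF-β also supports genes of tissue residence such as Cx3cr1.

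The 6 libraries held between 17.7 and 22.1 M counted reads (M, 1e+06 reads), and 14261 genes of 54532 were tested. All 8 macrophage markers looked at were detected, and their summed level was 16800 to 24100 CPM (counts per 1e+06 reads, with TMM-scaled library totals) in MyS3KO and 18200 to 19400 in MyS2KO. None of the 8 was called different (edgeR, adjusted p under 0.05), but without MyS3KO library 1 both Lyz2 (-1.34, edgeR adjusted p = 0.0188) and Fcgr1, a receptor for IgG (-0.65, edgeR adjusted p = 0.0432), were lower in MyS3KO. The neutrophil marker sum was 13.7 to 16.2 CPM in MyS3KO and 4.21 to 6.01 in MyS2KO, and 0 of its 5 tested members were called. Among them Ngp, a neutrophil granule protein, was 5.64, 6 and 5.62 CPM in MyS3KO and 0.909, 0.99 and 2.35 in MyS2KO (2.01 ± 0.67, edgeR adjusted p = 0.078). It was called higher by DESeq2 (adjusted p = 0.0272), by edgeR without a filter on low counts (adjusted p = 4.86e-06) and in edgeR fits of the 6 libraries without and with a replicate block (adjusted p = 0.00553 and 0.0203). The 4 endothelial markers summed to 49.1 to 101 CPM in MyS3KO and 102 to 118 in MyS2KO, with Kdr the most abundant. Kdr, a VEGF receptor, was 70.2, 42.8 and 31.5 CPM in MyS3KO and 80.4, 92.3 and 97.1 in MyS2KO (-0.9 ± 0.36, edgeR adjusted p = 0.149). It was called lower without MyS3KO library 1 (-1.28, edgeR adjusted p = 0.0414), as it was without a filter on low counts (edgeR adjusted p = 8.91e-06) and in a fit of the 6 libraries (edgeR adjusted p = 0.043). Of these markers Tie1 was called higher, at 0.496 to 0.681 CPM in MyS3KO and with no read in MyS2KO. The 5 osteoclast markers summed to 35.9 to 49.6 CPM in MyS3KO and 28.6 to 31.8 in MyS2KO. Of these Dcstamp, a protein of macrophage fusion, was called higher at 2.21, 5.35 and 3.28 CPM in MyS3KO against 0.284, 0.792 and 0.44 in MyS2KO (2.81 ± 0.47, edgeR adjusted p = 0.00065). Dendritic cell markers summed to 14.1 to 37.8 CPM in MyS3KO and 26.7 to 27.6 in MyS2KO. Nearly all of this sum was Xcr1, a chemokine receptor, at 37.3, 18.8 and 13.8 CPM in MyS3KO and 26.7, 25.6 and 26.3 in MyS2KO. Xcr1 was not called. Without both MyS3KO libraries numbered 1, an alternative chosen after seeing the data, it was called lower (-0.69, edgeR adjusted p = 0.0221). Lymphocyte, mast cell, stromal and erythroid markers each summed to at most 2.57 CPM in any library. In these bulk libraries fewer cells of a type and less RNA per cell cannot be told apart. The T lymphocyte markers Cd3e and Cd3g had no read in any of the 6 libraries. MyS3KO library 1 stood apart from libraries 2 and 3, at 18.2 on the first principal component of the 6 libraries against 48.5 and 50.4. On the second component MyS3KO library 1 was at -43.5 and MyS2KO library 3 at -26.6, with the rest from 6.8 to 25.6. Without MyS3KO library 1, 1525 genes were called in place of 954, of which 852 were shared. Without MyS2KO library 3, 694 were called, of which 634 were shared.

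The targeted genes were read first. Smad3, the SMAD that carries the MyS3KO label, was higher in MyS3KO: its level was 289, 249 and 265 CPM in MyS3KO and 48.7, 46.6 and 52.8 CPM in MyS2KO. The groups did not overlap, and the log2 difference was 2.44 ± 0.14 (SE; edgeR adjusted p = 2.02e-10). Between the floxed lines under TGF-β1 the log2 difference was 2.86 in the same direction, with 404, 441 and 399 CPM in Smad3fl and 54.2, 66.6 and 50.6 CPM in Smad2fl. Within the Smad3 line, MyS3KO was lower than Smad3fl by a log2 change of -0.63 ± 0.13 (edgeR adjusted p = 0.00208). Smad2 was 32.3, 35.3 and 39 CPM in MyS3KO and 38.7, 47.2 and 34.9 CPM in MyS2KO, which overlapped (-0.18 ± 0.12, edgeR adjusted p = 0.42). Within the Smad2 line its log2 difference between MyS2KO and Smad2fl was 0.09 ± 0.12 (edgeR adjusted p = 0.891). The gene counts thus go against the label for Smad3 when the lines are compared, and show no fall of Smad2 in the libraries labelled MyS2KO. The labels state for both lines that the knockout was documented by qPCR and Western blot. MyS3KO and MyS2KO hereafter mean the libraries so labelled, and each direction given rests on those labels. A gene count does not show whether an exon is missing from the transcript, and which exons were deleted is not stated in the labels used here. Smad4, the shared partner, was 47.9 to 51.2 CPM in MyS3KO and 46.5 to 47.9 CPM in MyS2KO (0.07 ± 0.1, edgeR adjusted p = 0.757). Lyz2, the gene that drives Cre, was 4520, 1420 and 1920 CPM in MyS3KO and 4140, 4110 and 4390 CPM in MyS2KO (-0.69 ± 0.37, edgeR adjusted p = 0.309). Without MyS3KO library 1 the Lyz2 difference was -1.34 (edgeR adjusted p = 0.0188).

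Under TGF-β1, 954 genes differed between the knockout lines, which is 6.69% of the genes tested. Of these, 518 were higher in MyS3KO (3.63% of all tested) and 436 lower (3.06%). The difference reached at least 2-fold for 259 of the higher and 239 of the lower genes. The median log2 difference over all tested genes was 0.01. The CPM values of the 3 and 3 libraries did not overlap for 937 of the 954 genes, against 24.0% of all tested genes. The count depended on single libraries: it was 439 without MyS3KO library 3, 540 without MyS3KO library 2 and 541 without MyS2KO library 2.

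Much of the difference was present before TGF-β1 was added. Untreated MyS3KO and MyS2KO macrophages, which are other libraries than the treated ones, differed in 853 genes (5.98% of those tested, 3.35% higher and 2.63% lower in MyS3KO). Of the 954 genes, 460 were called in the same direction there, or 48.2% of the 954 and 53.9% of the 853, and 1 was called in the opposite direction. The labels do not say whether a treated and an untreated library of a line with the same number come from the same culture, and their deviations from the group means had correlations of 0.15, 0.22 and 0.41 in MyS2KO and 0.41, 0.04 and 0.29 in MyS3KO. Smad3fl and Smad2fl macrophages under TGF-β1, again without a shared library, differed in 3615 genes (25.3% of those tested, 12.0% higher and 13.3% lower in Smad3fl). There 446 of the 954 were called in the same direction, which is 46.8% of the 954 and 12.3% of the 3615, and 27 in the opposite direction. On the first principal component of all 24 libraries, Smad3fl under TGF-β1 lay apart, at 80, 83.1 and 66.5 against -10.8, -11.4 and -8.5 in Smad2fl. In all, 301 genes were called the same way in both other comparisons and 349 in neither. The number shared with untreated macrophages was 280 of 910 calls without untreated MyS3KO library 2, and 281 of 909 without library 3. For the floxed lines it was 267 of only 439 calls without treated MyS3KO library 3. It was 295 of 541 calls without treated MyS2KO library 2, so there the total fell as well. The sign of the difference was the same untreated for 907 of the 954 genes and the same between floxed lines for 785.

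**Figure D1:**
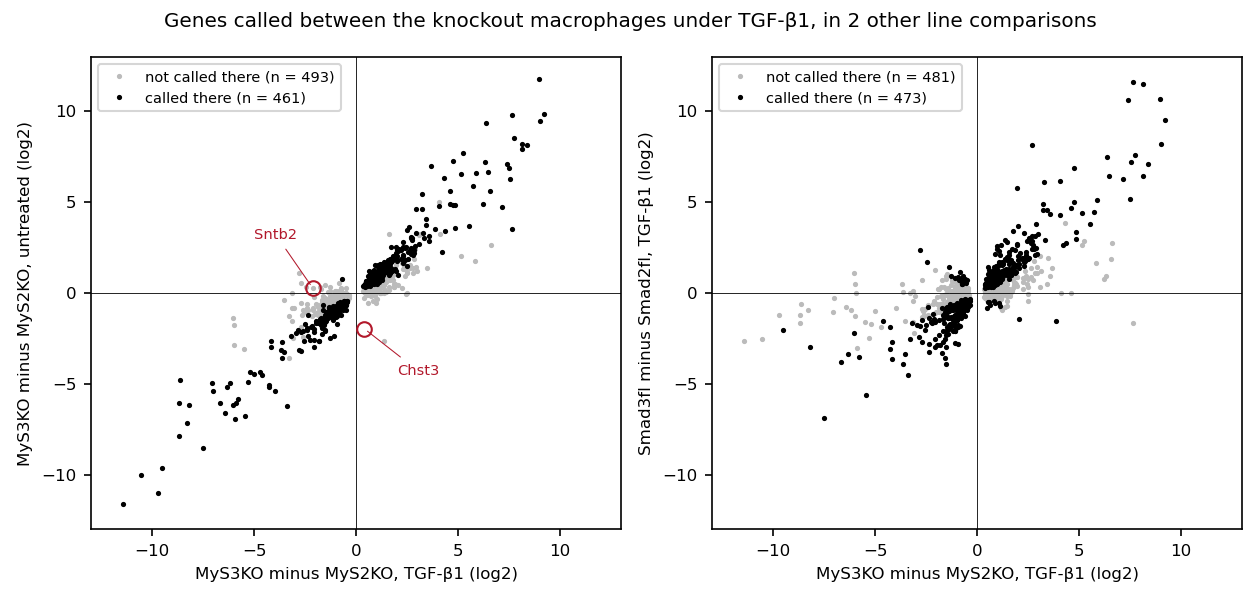
Each point is 1 of the 954 genes called between MyS3KO and MyS2KO under TGF-β1, with that log2 difference on the x axis. The y axes give the log2 difference of the same gene between the untreated knockout lines (left) and between the floxed lines under TGF-β1 (right), with black points called there in either direction. Of the 954 genes, 461 were called there on the left and 473 on the right. Red circles on the left mark Sntb2 and Chst3, the latter added although it is not among the 954.

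The largest differences were near presence or absence of a transcript. Of the 12 leading higher genes, all 12 were called higher also untreated and 11 also between the floxed lines, Gm42427 being the exception. Of the 12 leading lower genes, all 12 were called lower also untreated, but 3 between the floxed lines, namely G530011O06Rik, Mid1 and Gm47283. Several of the 24 are pseudogenes or members of gene families with close copies, such as Hmga1b, Gm8810 and Hist1h2bq, and reads shared with a copy make their levels uncertain.

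**Figure D2:**
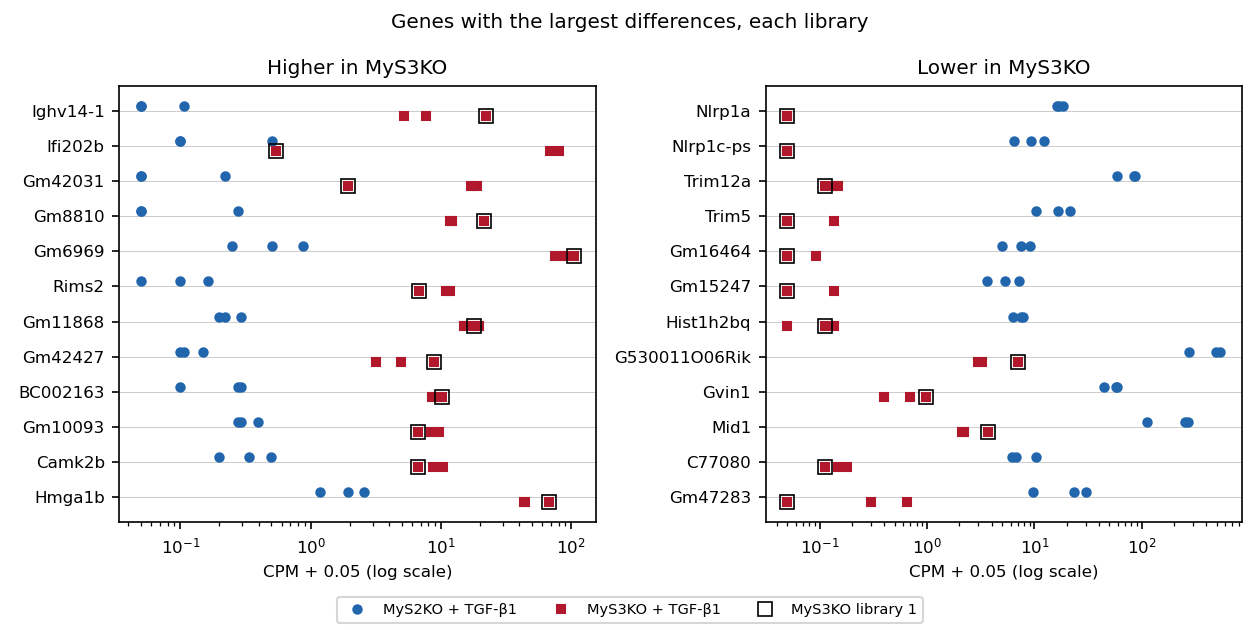
CPM plus 0.05 on a log axis for the 12 higher and 12 lower leading genes in each of the 3 MyS2KO (circles) and 3 MyS3KO (squares) libraries under TGF-β1. Open black squares mark MyS3KO library 1, which lies with MyS2KO for Ifi202b and apart from the other MyS3KO libraries for Gm42031.

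Nlrp1a, which encodes an inflammasome sensor, held 325, 325 and 345 reads in MyS2KO and no read in any MyS3KO library. With 3 reads over the MyS3KO group as the limit, it was at least 343-fold lower in MyS3KO (edgeR adjusted p = 0.0152). The call was lost without MyS3KO library 2 (adjusted p = 0.0645) or library 3 (adjusted p = 0.0746), each leaving 0 reads in that group. Its neighbour Nlrp1c-ps, on chromosome 11 as well, had 12.2, 9.26 and 6.4 CPM in MyS2KO and no read in MyS3KO, at least 186-fold lower by the same limit (edgeR adjusted p = 0.0115). Its call was lost without MyS3KO library 3 (adjusted p = 0.0602).

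Trim12a, of the TRIM5 family of antiviral ubiquitin ligases, was 84.5, 85.8 and 58.9 CPM in MyS2KO and 1, 2 and 2 reads in the 3 MyS3KO libraries (edgeR adjusted p = 0.000293). Its neighbour Trim5 was 16.7, 21.2 and 10.4 CPM in MyS2KO and 0, 0 and 2 reads in MyS3KO (edgeR adjusted p = 0.00084). Trim30b, a related gene at the same locus, was 40.3, 42.3 and 32.5 CPM in MyS2KO and 1.35, 1.19 and 0.596 in MyS3KO (-5.23 ± 0.81, edgeR adjusted p = 0.000245). Within 1 Mb of Trim12a (chr7:104299894-104315466, GRCm38), 8 of 13 tested neighbours were called, 7 lower and 1 higher. This window was chosen after the values were seen, and the paralogs there can share reads. Mid1, a ubiquitin ligase gene on the X chromosome, was 112, 251 and 267 CPM in MyS2KO and 3.68, 2.08 and 2.17 in MyS3KO (-6.33 ± 0.43, edgeR adjusted p = 2.43e-09). Within 1 Mb of Mid1, 3 of 7 tested neighbours were called, all lower, among them G530011O06Rik and Gm15247, an antisense gene whose reads cannot be told apart from Mid1 without a stated strand setting.

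Among the higher genes, Ifi202b, a cytosolic DNA-binding protein of the interferon-inducible Ifi200 family, was 80.9 and 68.8 CPM in MyS3KO libraries 2 and 3. It was 0.49 CPM in MyS3KO library 1 and 0.455, 0.0495 and 0.0489 in MyS2KO. The same split appeared untreated, with 1.25, 87.9 and 104 CPM in MyS3KO libraries 1, 2 and 3. Ighv14-1, an immunoglobulin heavy chain segment, had 22.3, 5.2 and 7.58 CPM in MyS3KO and 1 read in all of MyS2KO. Arsb, a lysosomal sulfatase gene, was 68.2, 49.7 and 53.8 CPM in MyS3KO and 4.43, 3.56 and 3.81 in MyS2KO (3.86 ± 0.29, edgeR adjusted p = 1.12e-08). Between the floxed lines under TGF-β1 Arsb differed in the opposite direction (-1.54, edgeR adjusted p = 0.00173), with 0.77, 1.01 and 1.79 CPM in Smad3fl and 2.15, 3.17 and 4.96 CPM in Smad2fl. Camk2b, a calcium-dependent kinase subunit, was 6.68, 8.58 and 10.3 CPM in MyS3KO and 0.284, 0.446 and 0.147 in MyS2KO (4.84 ± 0.66, edgeR adjusted p = 5.83e-05).

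Counts in the gene lists are to be read beside the shares over all tested genes, 3.63% called higher and 3.06% lower. Counts from other fits have other totals: without MyS3KO library 1, 695 of 14759 tested genes were higher and 830 lower. Some lists lie near these shares, some genes are in more than 1 list, and no list was tested as a set. TGF-β feedback genes and SMAD targets were the first list of pathway genes. Of 25 tested members, 5 were higher in MyS3KO, 1 was lower and 19 were not called, and the median log2 difference was 0.23 beside 0.01 over all genes. The higher members were Bhlhe40, Pmepa1, Smad6, Smad7 and Ski, and the lower member was Zfp36l1. The number higher was 5 with each of the 6 libraries left out and 1 against a 1.5-fold limit. The number lower was 0 without MyS3KO library 3 or MyS2KO library 1 or 2, and 3 without MyS3KO library 1. Untreated, 1 member was called higher and 3 lower, and between the floxed lines 1 was higher and 3 lower.

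Pmepa1, which sequesters receptor-activated SMADs, was 26.5, 27.6 and 31.6 CPM in MyS3KO and 15.7, 7.97 and 9.44 in MyS2KO (1.37 ± 0.28, edgeR adjusted p = 0.00326). Untreated it lay at or below 0.242 CPM in all 6 knockout libraries. Smad7, an inhibitor that recruits ubiquitin ligases to the receptor, was 45.4, 44.4 and 37.9 CPM in MyS3KO and 25.7, 23.7 and 23 in MyS2KO (0.82 ± 0.17, edgeR adjusted p = 0.0049). None of these values overlapped between the lines.

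Smad6, the inhibitory SMAD of the BMP branch, was 21, 26.6 and 23.8 CPM in MyS3KO and 10.7, 10.6 and 13.6 in MyS2KO (1.03 ± 0.22, edgeR adjusted p = 0.00497). Bhlhe40, a transcriptional repressor, was 16.9, 21.5 and 23.4 CPM in MyS3KO and 6.42, 5.69 and 5.23 in MyS2KO (1.83 ± 0.22, edgeR adjusted p = 1.36e-05). Both were thus higher in every MyS3KO library than in any MyS2KO library. Id1, an inhibitor of basic helix-loop-helix factors and a BMP target, was 2.27, 3.67 and 4 CPM in MyS3KO and 0.796, 0.99 and 1.17 in MyS2KO (1.74 ± 0.5, edgeR adjusted p = 0.0371). Its call was lost without any 1 of 5 libraries, at adjusted p from 0.0792 to 0.166, MyS3KO library 1 being the exception. Smad6 lies within 5 Mb of Smad3 on chromosome 9, and Smad7 within 5 Mb of Smad2 on chromosome 18.

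**Figure D3:**
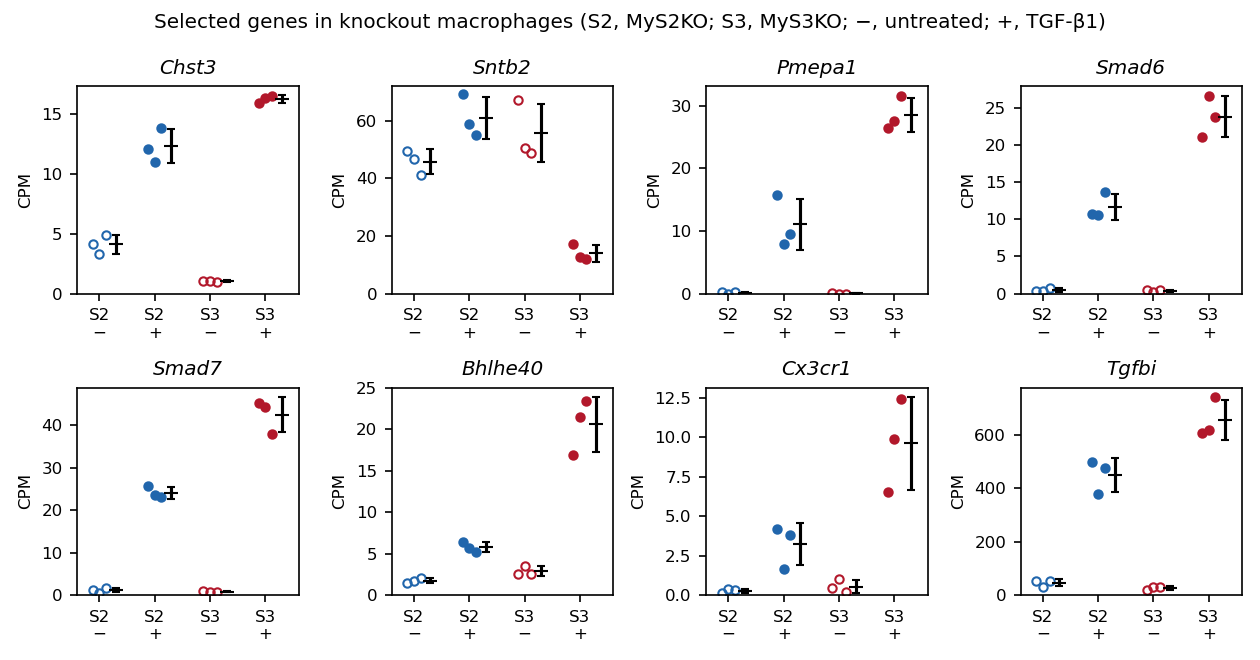
CPM of 8 genes in each library of the 4 knockout groups (S2, MyS2KO, blue; S3, MyS3KO, red; open points untreated, filled points TGF-β1), with mean and SD of 3 libraries beside them. Pmepa1, Smad6, Smad7, Bhlhe40 and Cx3cr1 are higher in MyS3KO than in MyS2KO under TGF-β1, while Tgfbi was not called and Chst3 and Sntb2 respond differently in the lines.

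Tgfbi, a secreted matrix protein induced by TGF-β, was 606, 620 and 742 CPM in MyS3KO and 497, 379 and 478 in MyS2KO (0.54 ± 0.21, edgeR adjusted p = 0.145). Of the 13 tested receptors and activators of the TGF-β family, 1 was called, the integrin subunit Itgav, which takes part in releasing latent TGF-β (0.62 ± 0.19, edgeR adjusted p = 0.046). The share called over all tested genes was 6.69%. The Itgav call was lost without MyS3KO library 2 (adjusted p = 0.263), MyS3KO library 3 (adjusted p = 0.118), MyS2KO library 2 (adjusted p = 0.175) or MyS2KO library 3 (adjusted p = 0.187), and with another scaling (adjusted p = 0.0508).

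Genes that depend on TGF-β in microglia, the macrophages of the brain, made up a further list of 9 tested members, of which 4 were higher and 0 lower, with a median log2 difference of 0.61. Cx3cr1, the receptor for fractalkine, was 6.56, 9.86 and 12.4 CPM in MyS3KO and 4.21, 1.68 and 3.81 in MyS2KO (1.58 ± 0.4, edgeR adjusted p = 0.0165). Gpr34 and Gpr84 were called higher too, and both lost the call without some single libraries. The Cx3cr1 call was lost without MyS3KO library 2 (adjusted p = 0.0572), MyS3KO library 3 (adjusted p = 0.113) or MyS2KO library 2 (adjusted p = 0.108). The number of called members fell to 1 without MyS3KO library 3 or MyS2KO library 2, and to 2 without MyS3KO library 2 or MyS2KO library 1. Cxcr4, the receptor for the chemokine CXCL12, was 118, 159 and 160 CPM in MyS3KO and 77.4, 60.5 and 61.7 in MyS2KO (1.13 ± 0.16, edgeR adjusted p = 0.00013).

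The TGF-β1 responses themselves were compared as a difference of differences. MyS3KO macrophages changed 1428 genes after TGF-β1 (10.0% of those tested, 6.54% higher and 3.47% lower). MyS2KO macrophages changed 486 (3.41%, with 2.9% higher and 0.505% lower). These counts do not show that the responses differ, since the difference was called for 2 genes (0.014%), 1 in each direction (0.00701%), with 787 at an unadjusted p under 0.05 and 14 called by DESeq2. It was called for 4 genes without untreated MyS2KO library 2, and for 3 without untreated MyS3KO library 1. With the replicate number as a block within each line, an alternative chosen after seeing the data, MyS3KO changed 2749 genes, MyS2KO 1032, and the responses differed for 54, of which 25 were positive and 29 negative. Chst3 and Sntb2 were among the 54, and so was Tgfbi, with a larger response in MyS3KO (1.3 ± 0.19, edgeR adjusted p = 0.00899 with the block and 0.453 without). The numbers met the limit for pairing, a correlation over 0.1 in every same-numbered pair, in MyS2KO but not in MyS3KO. That limit does not look at libraries of different number, which correlated from -0.35 to 0.2 in MyS2KO and from -0.42 to 0.29 in MyS3KO. Treated MyS2KO library 1 correlated more with untreated library 2 (0.2) than with untreated library 1 (0.15), so pairing by number remains uncertain. For Pmepa1, Smad6, Smad7 and Bhlhe40 the difference of responses was positive in each and not called, with edgeR adjusted p from 0.517 to 0.862 without the block and from 0.129 to 0.222 with it.

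Chst3, a sulfotransferase that modifies chondroitin sulfate, was 1.07, 1.08 and 0.982 CPM in untreated MyS3KO and 15.9, 16.3 and 16.5 CPM after TGF-β1. In MyS2KO it was 4.12, 3.29 and 4.88 CPM untreated and 12.1, 11 and 13.8 CPM after TGF-β1. It was thus lower in MyS3KO than in MyS2KO without TGF-β1 (-1.96, edgeR adjusted p = 4.1e-06) and not called different with it (0.4 ± 0.18, edgeR adjusted p = 0.198). The response was larger in MyS3KO by 2.36 ± 0.28 on the log2 scale (edgeR adjusted p = 0.000166).

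Sntb2, a syntrophin that links membrane proteins to the cytoskeleton, was 67.1, 50.6 and 48.9 CPM in untreated MyS3KO and 17.2, 12.5 and 12.1 CPM after TGF-β1. In MyS2KO it was 49.6, 46.5 and 41.2 CPM untreated and 69.1, 58.7 and 54.9 CPM after TGF-β1. It fell in MyS3KO (-2 ± 0.2, edgeR adjusted p = 2.46e-07), while its change in MyS2KO was 0.41 ± 0.19 (edgeR adjusted p = 0.401). The difference of responses was -2.41 ± 0.28 (edgeR adjusted p = 0.000166). Under TGF-β1 it was also lower in Smad3fl than in Smad2fl, with 30.8, 20.7 and 16.8 CPM against 59.7, 59.4 and 64.3 CPM (-1.42, edgeR adjusted p = 3.23e-05).

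Promoter sequences are shown for Smad6 and Cx3cr1, which were higher in MyS3KO under TGF-β1, and for Chst3, whose response differed. Each is the 250 bases upstream of the RefSeq gene start in GRCm38.p6, written 5′ to 3′ on the gene's strand, with capitals for the SMAD box CAGAC or its complement GTCTG.
Smad6, chr9:64022060-64022309, minus strand: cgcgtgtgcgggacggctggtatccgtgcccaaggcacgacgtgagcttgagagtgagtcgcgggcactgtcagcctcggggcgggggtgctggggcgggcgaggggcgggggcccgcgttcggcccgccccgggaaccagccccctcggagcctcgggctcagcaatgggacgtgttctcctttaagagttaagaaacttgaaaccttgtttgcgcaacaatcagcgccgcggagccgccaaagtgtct
Cx3cr1, chr9:120068297-120068546, minus strand: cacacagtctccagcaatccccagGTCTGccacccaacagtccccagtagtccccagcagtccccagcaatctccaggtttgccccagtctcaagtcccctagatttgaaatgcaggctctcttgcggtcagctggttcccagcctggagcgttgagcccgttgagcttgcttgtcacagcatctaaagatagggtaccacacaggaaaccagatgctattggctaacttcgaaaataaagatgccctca
Chst3, chr10:60219261-60219510, minus strand: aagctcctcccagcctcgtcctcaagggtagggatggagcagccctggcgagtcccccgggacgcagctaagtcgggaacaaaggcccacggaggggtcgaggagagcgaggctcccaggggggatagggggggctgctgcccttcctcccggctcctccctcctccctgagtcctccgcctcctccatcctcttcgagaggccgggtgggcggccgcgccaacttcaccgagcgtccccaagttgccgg
The box occurs once in the Cx3cr1 window and in neither of the others. Of 27025 promoters of this length, 42.1% hold at least 1 on either strand. A match is a description of the letters and no evidence of binding.

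Glycolysis and hypoxia response genes were higher in MyS3KO in 11 of 20 tested members and lower in 0, with a median log2 difference of 0.57. Hk2, the hexokinase that starts glycolysis, was 510, 500 and 521 CPM in MyS3KO and 294, 262 and 224 in MyS2KO (0.97 ± 0.12, edgeR adjusted p = 2e-05). Egln3, an oxygen-sensing prolyl hydroxylase, was 19.4, 35.8 and 46.7 CPM in MyS3KO and 9.49, 9.75 and 6.4 in MyS2KO (1.99 ± 0.35, edgeR adjusted p = 0.00101). No value of either gene overlapped between the lines. Eno1, the enolase, was 917, 951 and 1160 CPM in MyS3KO and 530, 574 and 696 in MyS2KO (0.75 ± 0.16, edgeR adjusted p = 0.00403). The other higher members were the glucose transporter Slc2a1, the glycolytic enzymes Pfkl, Gapdh, Pgk1, Pgam1 and Ldha, the kinase Pdk1, which restrains pyruvate dehydrogenase, and Ankrd37, a target of hypoxia-inducible factor. Of the 11, 7 were called higher also untreated and 8 also between the floxed lines. The number called was 8 to 11 with single libraries left out, and 4 in a fit of the 6 libraries with a replicate block.

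**Figure D4:**
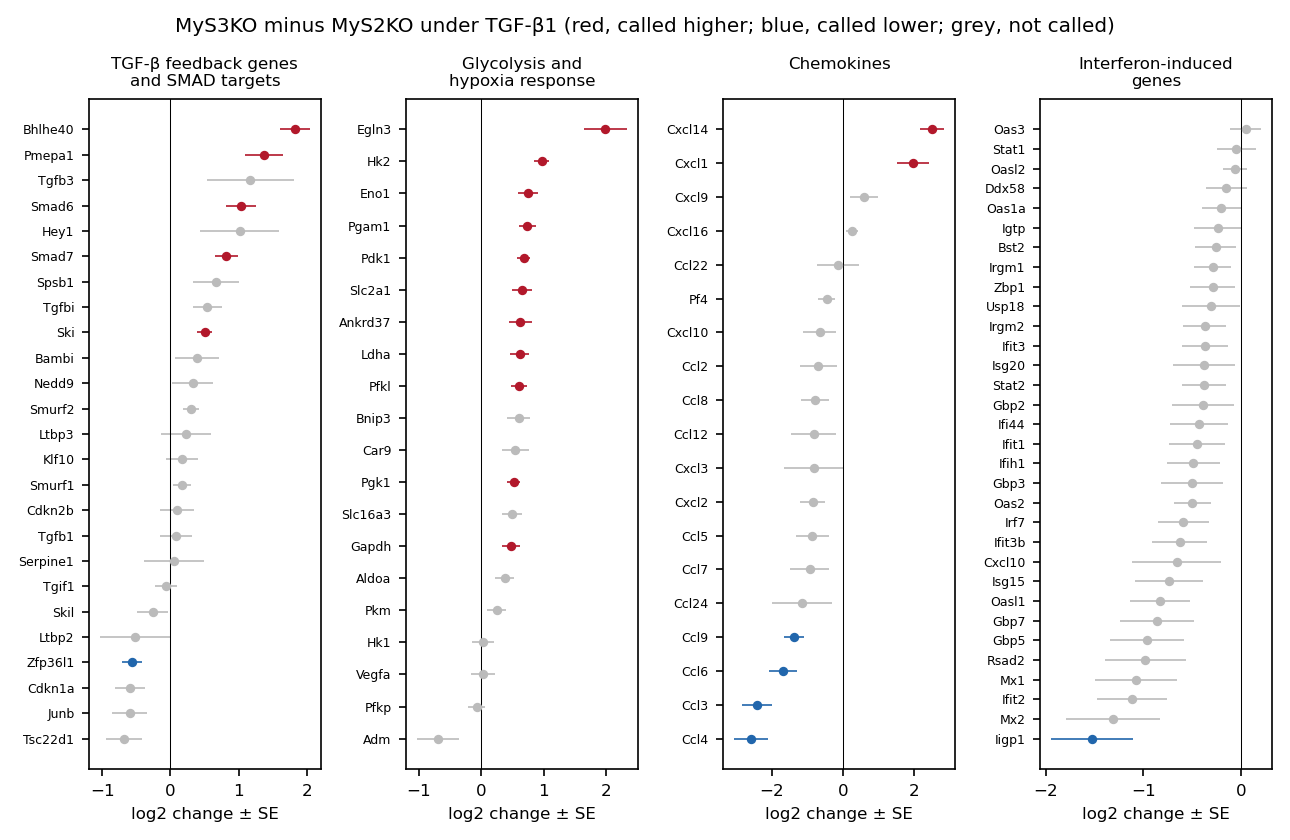
Log2 difference, MyS3KO minus MyS2KO under TGF-β1, with its SE, for each tested member of 4 lists (red called higher, blue called lower, grey not called). Glycolysis members lie mostly to the right of 0 with 11 called, chemokines have 4 called lower and 2 higher, and interferon-induced genes lie mostly to the left with 1 called.

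Chemokines went both ways, with 4 of 19 tested members lower, 2 higher and a median of -0.83. Ccl3, which attracts monocytes, was 232, 89.2 and 74 CPM in MyS3KO and 626, 655 and 827 in MyS2KO (-2.42 ± 0.42, edgeR adjusted p = 0.000797). Ccl4, its neighbour on chromosome 11, was 122, 40.8 and 33.4 CPM in MyS3KO and 382, 387 and 413 in MyS2KO (-2.6 ± 0.48, edgeR adjusted p = 0.00158). MyS3KO library 1 was the highest of its group for both, and still below every MyS2KO library. Ccl6 and Ccl9 of the same cluster were lower too (-1.7 and -1.38), so the lower chemokines all lie at 1 locus. Within 1 Mb of Ccl3, 5 of 38 tested neighbours were called (13.2%, beside 6.69% over all tested genes), all lower. Beside the chemokines these were Wfdc17 (-2.4) and Wfdc18 (-5.5). This window, too, was chosen after the values were seen. Cxcl14, a chemokine of epithelia and other tissues, was 8.33, 12.1 and 12.6 CPM in MyS3KO and 1.76, 1.98 and 2 in MyS2KO (2.52 ± 0.34, edgeR adjusted p = 6.43e-05). Cxcl1, a neutrophil attractant, was 34.4, 22.1 and 20.1 CPM in MyS3KO and 4.89, 6.19 and 8.26 in MyS2KO (1.98 ± 0.46, edgeR adjusted p = 0.00955), and its call was lost without MyS2KO library 1 (adjusted p = 0.0554). All 6 called chemokines were called the same way untreated. Without MyS3KO library 1 the list had 7 members lower and 2 higher, beside 830 lower and 695 higher of all 14759 genes tested in that fit.

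Of 12 tested inflammatory cytokines, 0 were called by edgeR, with a median of -0.42. Without MyS3KO library 1, 4 were lower, in a fit that called 830 of all 14759 tested genes lower. DESeq2 called 3 lower on all libraries, beside 599 of all 14261 genes. Nos2, the inducible nitric oxide synthase, shows the spread: it was 896, 258 and 199 CPM in MyS3KO and 365, 372 and 480 in MyS2KO (0.15 ± 0.46, edgeR adjusted p = 0.888). Its difference without MyS3KO library 1 was -0.83 (edgeR adjusted p = 0.218). Interferon-induced genes were called in 1 of 32 tested members, Iigp1, an immunity-related GTPase, which was lower (-1.53 ± 0.42, edgeR adjusted p = 0.0289). Their median was -0.44. Without MyS3KO library 1, 13 of them were called lower, beside 830 of 14759 genes tested overall in that fit, while without MyS3KO library 2 or 3, or MyS2KO library 1 or 2, none was. The Iigp1 call was lost without each of those 4 libraries, at adjusted p from 0.0894 to 0.167.

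Inflammasome genes were lower in 4 of 16 tested members and higher in 0, with a median of -0.43. Beside Nlrp1a they were Naip5, a sensor of bacterial flagellin, Naip2 and Casp12. Without MyS3KO library 2 or 3 the number was 2. Naip5 was 34.4, 31.8 and 30.7 CPM in MyS3KO and 70.1, 70.5 and 53.7 in MyS2KO (-1 ± 0.16, edgeR adjusted p = 0.000407). Immediate early factors of the AP-1, EGR and NR4A families were lower in 3 of 19 and higher in 0, with a median of -0.46. Egr1 was 12.7, 7.98 and 10.7 CPM in MyS3KO and 24.7, 20.4 and 29.9 in MyS2KO (-1.26 ± 0.22, edgeR adjusted p = 0.000878). The other 2 were Ier2 and Jund. Without MyS3KO library 1, 8 members of this list were lower, beside 830 of all 14759 genes tested in that fit. Without MyS3KO library 2 or 3 or MyS2KO library 3, 1 member was lower.

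Genes of alternative activation, the state induced by IL-4, were lower in 4 of 15 tested members and higher in 1. Mrc1, the mannose receptor, was 229, 276 and 259 CPM in MyS3KO and 519, 488 and 379 in MyS2KO (-0.86 ± 0.16, edgeR adjusted p = 0.00186). Clec7a, the receptor for fungal glucans, was 17.4, 50.4 and 45.4 CPM in MyS3KO and 128, 116 and 86.9 in MyS2KO (-1.54 ± 0.32, edgeR adjusted p = 0.0043). Clec10a and Il4ra were the other lower members. The Clec10a call (-1.41 ± 0.41, edgeR adjusted p = 0.0368) was lost without any of 5 libraries, all but MyS2KO library 1, at adjusted p from 0.0561 to 0.157. The number of lower members was 2 without MyS3KO library 2 or 3 or MyS2KO library 3. Chil3, a secreted lectin, was higher, at 12.9, 10 and 11.7 CPM in MyS3KO and 2.39, 2.48 and 2.54 in MyS2KO (2.22 ± 0.5, edgeR adjusted p = 0.00783). Chil3 is also made by neutrophils, whose marker sum was higher in MyS3KO as given above, and the part of that in this result was not tested. Pparg, a lipid-sensing nuclear receptor, was 5.7, 7.98 and 8.09 CPM in MyS3KO and 15.6, 18.2 and 21.4 in MyS2KO (-1.34 ± 0.19, edgeR adjusted p = 7.96e-05).

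Scavenger receptors were higher in 3 of 10 tested members and lower in 0, with a median of 0.28. Marco, which binds bacteria and particles, was 622, 309 and 396 CPM in MyS3KO and 96.1, 154 and 140 in MyS2KO (1.76 ± 0.28, edgeR adjusted p = 0.000343). Colec12 and Scarb2 were the other 2. Receptors and bridges for dying cells were higher in 4 of 14 and lower in 0, with a median of 0.3. Cd300lf, which recognises exposed lipids, was 107, 115 and 122 CPM in MyS3KO and 36.2, 41.2 and 32.4 in MyS2KO (1.65 ± 0.31, edgeR adjusted p = 0.00186). Timd4, a phosphatidylserine receptor, was 3.55, 2.23 and 2.26 CPM in MyS3KO and 0, 0.297 and 0 in MyS2KO, where it rests on 6 reads (edgeR adjusted p = 0.00101). The other 2 were the integrin subunits Itgb5 and Itgav. Without MyS3KO library 3 or MyS2KO library 2 the number was 2.

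Redox and stress genes moved in a few members. Genes of glutathione and the NRF2 response were higher in 4 of 16 tested members and lower in 0, with a median of 0.35. Gclm, a subunit of the enzyme that starts glutathione synthesis, was 89.3, 108 and 114 CPM in MyS3KO and 51.3, 48.2 and 49 in MyS2KO (1.07 ± 0.21, edgeR adjusted p = 0.00244). Without MyS3KO library 3 or MyS2KO library 2, 2 members of this list were called. Hsph1, a chaperone of the heat shock family, was 25.2, 42.6 and 36.5 CPM in MyS3KO and 14.4, 10.4 and 12.7 in MyS2KO (1.48 ± 0.24, edgeR adjusted p = 0.000354). The other called member of 12 tested heat shock chaperones was Hspa1b, whose call was lost without any of 4 libraries, MyS3KO library 1 or 2 or MyS2KO library 1 or 2, at adjusted p from 0.0577 to 0.076. None of 31 cytosolic ribosomal protein genes was called by edgeR or DESeq2, with a median of -0.03, whereas 29 of them were lower in Smad3fl than in Smad2fl under TGF-β1.

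Of 22 tested MHC and antigen processing genes, 3 were higher and 1 lower, with a median of -0.05. Over all tested genes 3.63% were called higher and 3.06% lower, for this and the next 2 lists. H2-T24, a non-classical class I gene, was 979, 782 and 784 CPM in MyS3KO and 417, 463 and 416 in MyS2KO (0.97 ± 0.14, edgeR adjusted p = 0.000159). The other higher members were H2-Q6 and H2-Q7, near-identical genes among which reads can be split. The lower member was Nlrc5, an activator of class I genes, whose call was lost without any of 4 libraries, MyS3KO library 2 or 3 or MyS2KO library 1 or 2, at adjusted p from 0.0718 to 0.167. Of 20 tested matrix proteases and inhibitors, 2 were higher, Adamts1 and Ctsl, and 1 was lower, Mmp27, with a median of 0.1. With single libraries left out 1 to 3 were higher and 0 or 1 lower. Ctsl, a lysosomal protease, was 2440, 2090 and 1950 CPM in MyS3KO and 1210, 1050 and 1070 in MyS2KO (0.96 ± 0.22, edgeR adjusted p = 0.00781). Of 17 tested integrins and adhesion genes, 3 were higher (Itgal, and Itgav and Itgb5 as already counted above) and 0 lower, with a median of 0.17. Without MyS3KO library 3 or MyS2KO library 2 the number was 1. Itgal, the alpha chain of the adhesion receptor LFA-1, was 203, 174 and 218 CPM in MyS3KO and 115, 112 and 117 in MyS2KO (0.79 ± 0.14, edgeR adjusted p = 0.000826). Ctsl and Itgal were called higher also untreated and between the floxed lines.

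Of 16 tested growth factor genes, 1 was called: Angptl2, a secreted angiopoietin-like protein, was 27.9, 34 and 35.1 CPM in MyS3KO and 15.3, 10.6 and 13.1 in MyS2KO (1.32 ± 0.25, edgeR adjusted p = 0.00183). The share called over all tested genes was 6.69%. Of 16 tested C-type lectins, 3 were lower, namely Mrc1, Clec7a and Clec10a, and 1 was higher. That was Clec4n, which encodes the fungal mannan receptor dectin-2, at 121, 122 and 129 CPM in MyS3KO and 59.1, 72 and 67.1 in MyS2KO (0.91 ± 0.19, edgeR adjusted p = 0.0049). The calls of Angptl2 and Clec4n held without any 1 of the 6 libraries, and both were called higher also untreated. Between the floxed lines under TGF-β1 neither was called.

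The difference between the knockout lines was also set against the difference between the floxed lines, gene by gene, under TGF-β1. These differed for 1011 genes (7.09% of those tested), 546 in the positive direction (3.83%) and 465 in the negative (3.26%). MyS3KO differed from Smad3fl in 4017 genes (28.2%, 15.0% higher and 13.2% lower) and MyS2KO from Smad2fl in 60 (0.421%, 0.189% higher and 0.231% lower). The Smad3fl libraries lay apart on the first principal component of all 24 libraries, at 80, 83.1 and 66.5. MyS3KO lay at -0.3, 18.9 and 11, and Smad2fl at -10.8, -11.4 and -8.5. Ribosomal protein genes took 1.07, 0.953 and 1.14% of reads in Smad3fl and 1.84, 1.94 and 2.15% in MyS3KO. The part of this in the counts of called genes was not tested. Arsb had the largest positive difference of differences among called genes of at least 5 CPM, 5.4 on the log2 scale (edgeR adjusted p = 1.07e-07). Gpr183, a receptor for oxysterols that guides cell movement, was 16.7, 50.3 and 45.3 CPM in MyS3KO and 9.32, 8.61 and 8.95 in MyS2KO. It was lower in Smad3fl than in Smad2fl, and its difference of differences was 3.47 (edgeR adjusted p = 0.000628). The count was 625 and 363 without Smad3fl library 1 and 2, 348 and 490 without Smad2fl library 1 and 2, 447 and 469 without MyS2KO library 1 and 2, and 586 and 410 without MyS3KO library 2 and 3. It was 2332 when fitted on the 12 libraries concerned alone.

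By position, chromosome 18, which carries Smad2, had 37 of 320 tested genes called (11.6%), and chromosome 9, which carries Smad3, 57 of 770 (7.4%). The other chromosomes ranged from 3.47% on chromosome 5 to 10.5% on chromosome 13. Within 5 Mb of Smad2, 5 of 34 tested neighbours were called (14.7%), and within 5 Mb of Smad3, 9 of 73 (12.3%). Near Smad2 the largest was Myo5b, a motor protein of membrane recycling, at 0, 0.0496 and 0.17 CPM in MyS3KO and 1.53, 1.63 and 1.96 in MyS2KO (edgeR adjusted p = 0.000586). Near Smad3, Aph1b, a subunit of gamma-secretase, was 17.6, 10.4 and 11 CPM in MyS3KO and 4.04, 3.32 and 3.62 in MyS2KO (1.83 ± 0.24, edgeR adjusted p = 3.52e-05), and it was also called higher untreated and between the floxed lines.

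**Figure D5:**
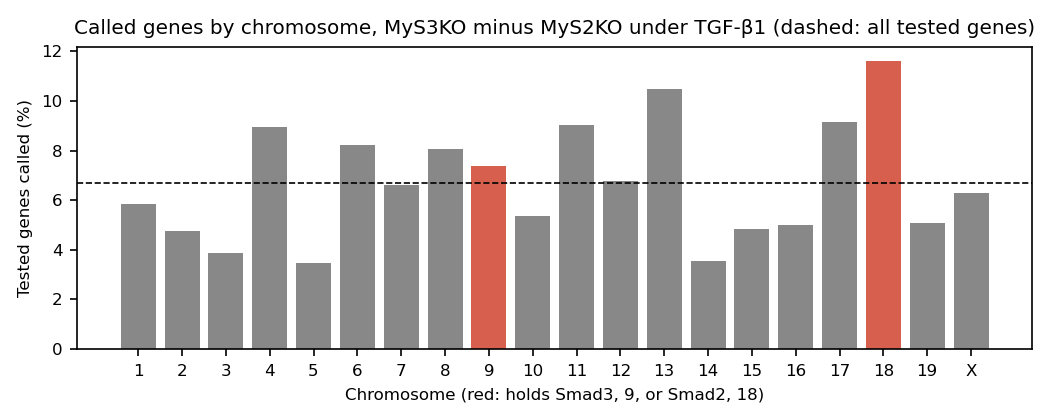
Share of tested genes called between MyS3KO and MyS2KO under TGF-β1 on each chromosome, in percent, with the 6.69% over all tested genes as a dashed line. Chromosome 18, which carries Smad2, has the highest share at 11.6%, and chromosome 9, which carries Smad3, has 7.4%.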

How the data were processed

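The authors deposited raw read counts per gene for 24 libraries and FPKM values, which equal the deposited counts divided by library total and a constant per gene and were not tested. Per the labels' protocols, poly(A) RNA was sequenced as paired reads. The submitters' processing notes name the builds mm10 and GRCm38.p6 and the tools HTSeq 0.6.1, TopHat2 2.0.9 and Cufflinks 2.1.1, with no counting mode or strand setting. Groups were taken from genotype and treatment labels. Counts were filtered (filterByExpr), scaled by TMM and fitted over 8 groups with the quasi-likelihood test of edgeR 4.0.16 in R 4.3.3. Benjamini-Hochberg adjustment covered all tested genes, and genes with an adjusted p under 0.05 were called. The median biological coefficient of variation was 21.2%. The code was tested on simulated counts for sign, bias and the share of false calls. A first bound on the share of changed genes recovered was not met, and these checks replaced it after that outcome was seen. DESeq2 1.42.0, another scaling, other filters, a replicate block, smaller fits, glmTreat and leaving out single libraries were alternatives. The members and the 48 gene lists were chosen with earlier results of these data known. Genes named are the 12 largest called differences in each direction with at least 5 CPM and no overlap, up to 6 in each direction for both interactions, up to 4 per list, the targeted genes and their called neighbours. Other members of a list are named from its called genes. Log2 differences are fitted values with the SE after ±. A limit of 3 reads over a group replaces 0 reads in folds and covers counting error only. Every column of the tables was assigned to a sample. Some genes are not reported here.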

Additional observations from a re-analysis of the deposited data

Results flagged for a closer look

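The TGF-β1 response differed between the knockout lines for Chst3, by 2.36, and Sntb2, by -2.41 on the log2 scale (edgeR interaction test, MyS3KO minus MyS2KO), and both held in every alternative run.

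The difference between knockout and floxed macrophages under TGF-β1 differed between the lines (edgeR, Smad3 line minus Smad2 line, log2) for a further 12 genes. It was positive for Arsb at 5.4, Gpr183 at 3.47, Rpl29 at 3.13, Cxcl14 at 2.93, Ephx1 at 2.72 and Egr3 at 2.71. It was negative for Trim12a at -8.54, Gm8730 at -7.58, Trim5 at -7.49, Gm16464 at -7.39, Gm9625 at -7.11 and Hist1h2bq at -6.7. Trim12a, Trim5, Gm16464 and Hist1h2bq had at most 5 reads over the 3 MyS3KO libraries, so their fitted values depend on the prior count of the fit. The Trim5 call was lost without MyS3KO library 2 or 3 or Smad3fl library 2 (adjusted p 0.0535 to 0.0614), and that of Gm16464 without MyS3KO library 3 (0.0572). The Egr3 call was lost without MyS2KO library 1, Smad3fl library 1 or 2 or Smad2fl library 2 (0.0534 to 0.0755). Gm8730 and Gm9625 did not differ beyond the threshold between the knockout lines (-0.26 and 0.13), and were higher in Smad3fl than in Smad2fl. Egr3, Rpl29 and Ephx1 were not called between the knockout lines under TGF-β1 either, but each was called in some alternatives. Without a filter on low counts Egr3 (-1.07, edgeR adjusted p = 0.00898) and Rpl29 (-1.11, edgeR adjusted p = 1.54e-08) were called lower in MyS3KO. Ephx1 was called higher there (1.07, edgeR adjusted p = 2.01e-07). Ephx1 was called higher also by DESeq2 (adjusted p = 0.0219) and without MyS3KO library 1 (edgeR adjusted p = 0.045). The edgeR fits of the 6 libraries without and with a replicate block called it too (adjusted p = 0.00328 and 0.0057). Egr3 was called lower in the unblocked fit of 6 (edgeR adjusted p = 0.0364). Without MyS3KO library 1, Rpl29 was called lower (-2.07, edgeR adjusted p = 0.00248). Rpl29 was 238, 57.1 and 63.6 CPM in MyS3KO under TGF-β1 and 220, 75.6 and 68.4 CPM untreated, with library 1 the highest in both. Groups of 3 libraries were not searched for single outlying samples.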

How the results depend on the processing

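Signs were compared across the alternatives only for 136 selected genes. No called difference among these changed sign. Some uncalled log2 differences did, Nos2 (0.15; -0.2 in the blocked fit of 6 libraries, -0.83 to 0.49 with single libraries left out, -0.84 without both MyS3KO libraries numbered 1), C3 (0.14; -0.28 to 0.29, and -0.29), Rplp0 (0.04; -0.07 to 0.28, and -0.05), Xist (-0.15; -0.37 to 0.05, and 0.04), Gm8730 (-0.26; -0.77 to 0.16), Gm9625 (0.13; -0.34 to 0.49), Xcr1 (-0.17; -0.69 to 0.08) and Ms4a1 (-0.46; -0.86 to 0.15). The number of genes called between MyS3KO and MyS2KO under TGF-β1 was 1475 without a filter on low counts (581 higher, 894 lower), 220 against a 1.5-fold limit, 960 with another scaling, 1361 by DESeq2 and 891 in a fit of the 6 libraries. It was 439 to 1525 with single libraries left out. Without both MyS3KO libraries numbered 1, an alternative chosen after seeing the data, it was 1903 (851 higher, 1052 lower), with 852 called the same way untreated. The difference of TGF-β1 responses had 131 calls without a filter and 14 by DESeq2, and 2 to 4 with single libraries left out. The difference of knockout effects had 1908 calls without a filter, 2332 in a fit of 12 libraries and 1687 by DESeq2, and 348 to 1340 with single libraries left out. Calls shared with untreated macrophages ranged from 280 (of 910) to 578 (of 1525) with single libraries left out. Those shared with floxed macrophages ranged from 267 (of 439) to 654 (of 1525). Where a left-out library leaves 2 in a group, the spread is shared with the other groups. The cause of these shifts was not tested. Same-numbered treated libraries of the knockout lines had correlations of -0.08, 0.08 and 0.07, so the numbers do not pair them. Treated and untreated libraries of the same number had 0.15, 0.22 and 0.41 in MyS2KO and 0.41, 0.04 and 0.29 in MyS3KO, and with the number as a replicate block within each line the responses differed for 54 genes. With the number as a replicate block the count was 931 over 24 libraries and 616 over the 6. Depth limits genes at a few reads, such as Nlrp1a in MyS3KO.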

Other observations

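Cell cycle inhibitors were among the genes not described above. Of 16 tested G1 kinase inhibitors, D cyclins and Myc genes, 3 were higher in MyS3KO under TGF-β1 and 1 lower, with a median log2 difference of 0.03. With single libraries left out 0 to 3 were higher and 0 to 2 lower: 1 and 0 without MyS3KO library 2 or 3, 1 and 1 without MyS2KO library 1, 0 and 0 without MyS2KO library 2, 2 and 0 without MyS2KO library 3, and 3 and 2 without MyS3KO library 1. Cdkn1c, an inhibitor of cyclin-dependent kinases, was 2.45, 3.47 and 3.79 CPM in MyS3KO and 0.171, 0.594 and 1.08 in MyS2KO (2.37 ± 0.62, edgeR adjusted p = 0.0202). The Cdkn1c call was lost without MyS3KO library 2 or 3 or MyS2KO library 1 or 2, at adjusted p from 0.0651 to 0.0959. Of 23 tested DNA replication and mitosis genes, 1 was called, Mcm3, which was higher, and its call was lost without any of the same 4 libraries, at adjusted p from 0.0652 to 0.174. The share called over all tested genes was 6.69%. Of 17 tested Wnt and Notch genes, 3 were lower and 1 higher, with the receptors Notch1 (-0.65) and Notch2 (-0.53) and the ligand Jag2 (-1.68) lower. Notch1 was 78.2, 66.8 and 70.6 CPM in MyS3KO and 107, 110 and 121 in MyS2KO (edgeR adjusted p = 0.00824), and its call held without any 1 of the 6 libraries. The Notch2 call was lost without any of 4 libraries (all but library 1 of each line, adjusted p from 0.0628 to 0.0954), and the Jag2 call without any of 5 (all but MyS2KO library 2, adjusted p from 0.0676 to 0.148).

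Of 16 tested contractile and cytoskeleton genes, 3 were lower and 2 higher. Rnd3, a small GTPase that opposes cell contraction, was 7.78, 9.02 and 6.77 CPM in MyS3KO and 25.1, 24.4 and 23.1 in MyS2KO (-1.62 ± 0.2, edgeR adjusted p = 1.64e-05). Among 18 tested TNF superfamily ligands and receptors, 1 was higher and 2 were lower, with a median of -0.15. Over all tested genes 3.63% were called higher and 3.06% lower. The higher member was Tnfrsf21, a death domain receptor, at 41.5, 49.9 and 50.4 CPM in MyS3KO and 15.6, 17.5 and 18.7 in MyS2KO (1.45 ± 0.21, edgeR adjusted p = 0.00012). Fas and Tnfsf9 were the lower members, and both lost the call without some single libraries.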
